A study of Mus musculus with 21 samples.

Results

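CS1-1 and R1 are lines of diploid mouse embryonic stem (ES) cells, and their messenger RNA was compared on 6 of the 21 Affymetrix Mouse Genome 430 2.0 arrays of the series, the 3 titled CS1-1 against the 3 titled R1. Both lines were labelled as 129 Sv in genetic background and were grown in N2B27 medium with 2i and LIF. A sort for haploid cells in G0/G1 was stated for androgenetic haploid ES (ahES) cells and round sperm and for neither diploid line. The other arrays held 3 ahES lines, mouse embryonic fibroblasts (MEF) and round sperm, with 3 arrays for each of the 7 groups. They gave levels beside those of both lines. The ahES arrays also entered the estimate of the spread behind each p-value. MEF and ahES arrays chose the MEF-high genes defined below. All 21 arrays served to set the signal offset and the probe set of each gene. Each diploid line is a single line, so its 3 arrays, labelled biological replicates, give the spread within that line and not the spread between lines of one kind. The labels give no sex, passage or origin for either line and do not say whether feeder cells were present.

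ES cells are derived from the inner cell mass of the blastocyst and keep the ability to form all tissues of the embryo. In 2i medium, inhibitors of MEK and of GSK3 hold back the ERK pathway and favour Wnt signalling, while LIF acts through Stat3, and together they keep cells in the naive state. Independent ES lines can differ in sex chromosomes, in imprinted genes and in chromosome number gained during culture.

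All levels below are log2 of the deposited MAS5 signal plus an offset of 9.70 signal units, and all differences are CS1-1 minus R1 on that log2 scale, with the standard error (SE) from limma. A gene was called higher or lower in CS1-1 where limma's Benjamini-Hochberg adjusted p was under 0.05 over all 12098 genes tested and the difference was at least 2-fold. Of these genes, 506 (4.18%) were higher and 690 (5.70%) lower in CS1-1, 9.89% in all, and the median difference of all genes was 0.02. At an unadjusted limma p under 0.05, 3458 of the 12098 genes were above 0 and 3200 below 0. Counts of list members at that p are to be read beside these. The arrays of one line did not overlap those of the other for 59.9% of all tested genes, with CS1-1 above R1 for 31.3% and below it for 28.6%. Arrays of one line had a Pearson correlation across these genes of 0.990 within CS1-1 and 0.989 within R1, against 0.946 to 0.948 between the lines, where genes are not independent replicates. The 3′ to 5′ signal of the Actb control probe sets differed by 0.52 to 0.63 on CS1-1 arrays and 0.52 to 0.63 on R1 arrays. The 4 ES markers Pou5f1, Sox2, Nanog and Zfp42 had a summed signal of 45099 to 45844 on CS1-1 arrays and 53159 to 53801 on R1 arrays, against 112 to 155 on MEF arrays, so both lines carried the markers of their label. A gene counts as near background in a line whose mean does not pass the 40th percentile of its arrays. The filter on low signal kept genes above that percentile on all 3 arrays of CS1-1 or of R1. A tested gene near background in one line thus passed the filter only through the other line. The direction of such genes was partly set by the filter, and their folds are given as lower bounds. Of the markers of other cell types, 5 of 6 for spermatids, 5 of 6 for Sertoli cells and 3 of 5 for trophoblast were near background in both lines. So were 3 of 6 for neural cells, 3 of 8 for primitive endoderm and 2 of 4 for blood. The neural markers summed to 7993 to 8536 in CS1-1 and 4714 to 5025 in R1, against 1306 to 1357 in MEF. The higher sum in CS1-1 came from markers that were not called, since the 1 called neural marker, Tubb3, was lower there. The blood markers summed to 4133 to 4685 in CS1-1 and 3167 to 3605 in R1, against 339 to 422 in MEF. Here too the 1 called marker, Cd34, was lower in CS1-1.

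None of the 15 tested genes of the core pluripotency list was called by limma, 3 being higher and 2 lower in CS1-1 at an unadjusted p under 0.05, and the list had a median difference of 0.03. Pou5f1, which encodes Oct4, was at 13.63, 13.62 and 13.64 in CS1-1, against 13.64, 13.64 and 13.58 in R1. Nanog, a homeobox factor that stabilises self-renewal, was at 13.87, 13.82 and 13.85 in CS1-1, against 13.80, 13.79 and 13.80 in R1. The arrays of the lines overlapped for Pou5f1 and lay close together for Nanog. Differences were 0.01 ± 0.05 (SE) for Pou5f1, 0.05 ± 0.05 for Nanog, -0.06 ± 0.08 for Sox2, -0.08 ± 0.06 for Klf4 and 0.12 ± 0.06 for Esrrb, all with limma adjusted p between 0.0964 and 0.887.

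Of 25 tested naive markers, 1 was higher and 1 was lower in CS1-1 (4% each, against 4.18% and 5.70% of all genes). The list median was 0.04, and 9 were above 0 and 5 below 0 at an unadjusted p under 0.05. Of all 12098 genes, 3458 were above 0 and 3200 below 0 at that p. Gbx2, a homeobox factor downstream of LIF and Stat3, was at 8.99, 8.86 and 8.71 in CS1-1, against 7.11, 7.36 and 7.74 in R1 (2.73-fold higher, adjusted p = 2.90e-08). Spic, an Ets-family factor characteristic of 2i-grown cells, was at 8.87, 8.60 and 8.73 in CS1-1, against 11.19, 11.10 and 11.12 in R1 (5.28-fold lower, adjusted p = 2.03e-14). The arrays of the 2 lines stood well apart for both genes. Spic is read only by probe sets of the kinds that can bind related transcripts, and both of them gave the same difference, -2.40 and -2.37. Zfp42 (Rex1), a zinc finger gene of naive cells on chromosome 8, was at 13.13, 13.17 and 13.12 in CS1-1, against 14.06, 14.06 and 14.09 in R1. Its difference of -0.93 ± 0.04 had an adjusted p of 1.12e-12 and was short of 2-fold. Nr0b1 (Dax1), an orphan nuclear receptor on the X chromosome that was picked after its values were seen, differed by 0.99 ± 0.05, just short of 2-fold, and passed it without CS1-1 replicate 1 (1.01), CS1-1 replicate 2 (1.01), R1 replicate 1 (1.01) or R1 replicate 3 (1.02).

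A few genes of the primed epiblast list were called in each direction. Of 14 tested, 2 (14.3%, against 4.18% of all genes) were higher and 2 (14.3%, against 5.70%) lower in CS1-1 (median -0.16, against 0.02 for all genes). Otx2, a homeobox factor that drives the exit from the naive state, was at 6.54, 6.45 and 7.12 in CS1-1, against 9.31, 9.54 and 9.52 in R1, where every R1 array was more than 4-fold above every CS1-1 array. This made Otx2 6.74-fold lower in CS1-1 (-2.75 ± 0.14, adjusted p = 2.18e-12). Cd24a, a surface protein of epiblast and many progenitor cells, was lower by the smaller difference of -1.27 ± 0.09. Lef1, a nuclear partner of beta-catenin, was at 8.10, 8.54 and 8.64 in CS1-1, against 5.51, 6.52 and 6.51 in R1 (4.75-fold higher). Zic5, a zinc finger gene near the end of chromosome 14, was 2.41-fold higher in CS1-1. Of 16 tested Nodal, Lefty and Wnt targets, 1 was higher and 1 was lower (6.25% each, near the shares of all genes). Cdx1, a caudal-type homeobox gene, rose by 1.71 ± 0.15, and Nodal itself, a growth factor of the TGF-beta family, fell by 1.06 to 10.68, 10.72 and 10.67 in CS1-1, against 11.72, 11.71 and 11.81 in R1. As the mean over both of its probe sets, Nodal differed by -0.96 and was short of 2-fold.

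Markers of the other early lineages were called in both directions, on small lists. Of 14 tested trophoblast genes, 3 (21.4%, against 4.18% of all genes) were higher and 1 (7.14%, against 5.70%) was lower in CS1-1, with a median of 0.12. Krt7 and Krt19, keratins of simple epithelia, rose by 1.45 and 1.14, Ascl2, a helix-loop-helix factor of trophoblast, was at least 2.51-fold higher, and Krt8, another keratin of simple epithelia, fell by 1.08. Ascl2 was near background in R1 and passed the filter on low signal only through CS1-1. Its 3 probe sets ranged from 0.10 to 2.38. Of 17 tested primitive endoderm genes, 2 (11.8%) were higher and 5 (29.4%) lower (median -0.50), and 4 of the 5 lower ones were of the MEF-high set defined below. Of 8 tested neural genes, 2 (25%) were lower (median -0.06), of which Tubb3, a neuronal tubulin, was 2.47-fold lower. Of 27 tested adhesion genes, 1 (3.70%) was higher and 3 (11.1%) were lower (median 0.05). The higher one was Cldn7, a tight junction claudin, at 9.39, 9.47 and 9.41 in CS1-1, against 7.92, 7.61 and 8.03 in R1, where no array of one line reached the other.

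Most fibroblast and matrix genes were lower in CS1-1. Of 44 tested genes of this list, 38 were lower and 1 was higher in CS1-1, with a median difference of -2.57, against 5.70% lower and a median of 0.02 over all genes. Col5a2, a chain of type V collagen, was at 7.999, 8.10 and 7.82 in CS1-1, against 11.83, 11.84 and 11.75 in R1 (14.3-fold lower, adjusted p = 2.93e-18). Col1a2, a chain of type I collagen, was at 9.88, 10.16 and 9.82 in CS1-1, against 13.33, 13.28 and 13.36 in R1 (10.3-fold lower). Postn, which encodes the matrix protein periostin, was at 7.87, 7.92 and 7.56 in CS1-1, against 11.49, 11.49 and 11.68 in R1 (13.7-fold lower). In all 3 genes the arrays of each line lay close together while the lines stood more than 3 log2 units apart. Col1a1, the partner chain of type I collagen, fell by 2.52 ± 0.17, Fbln2, a matrix glycoprotein, by 3.16 ± 0.09, Igfbp7, a secreted binder of growth factors, by 3.06 ± 0.09 and Thy1, a surface antigen of fibroblasts, by 2.45 ± 0.21. These are the brightest probe sets. Over all their probe sets, Fbln2 ranged from -3.16 to 0.18, Igfbp7 from -3.06 to -0.36 and Col1a2 from -3.54 to -0.47. Fbln1, another fibulin of the matrix, was the 1 member that was higher in CS1-1, by 1.03 ± 0.12, and it was short of 2-fold without CS1-1 replicate 3 (0.92) or R1 replicate 1 (0.98) and as the mean over its probe sets (0.45).

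Of the contractile and caveolar genes, 13 of 27 (48.1%, against 5.70% of all genes) were lower and none was higher in CS1-1. The list had a median of -0.93, with 2 members above 0 and 20 below 0 at an unadjusted p under 0.05. Acta2, smooth muscle actin, was at 8.19, 7.98 and 7.90 in CS1-1, against 11.57, 11.53 and 11.58 in R1 (11.6-fold lower). Tagln, an actin-binding protein of smooth muscle, was at 5.25, 5.67 and 5.64 in CS1-1, against 9.73, 9.45 and 9.69 in R1 (17.2-fold lower). For both genes the highest CS1-1 array was more than 3 log2 units below the lowest R1 array. Cav1, the main coat protein of caveolae, fell by 3.41 ± 0.13, Anxa1, an annexin, by 3.25 ± 0.10 and Cald1, the actin regulator caldesmon, by 1.22 ± 0.05. Over all their probe sets, Acta2 ranged from -3.54 to -0.01 and Anxa1 from -3.25 to -0.14.

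**Figure D1:**
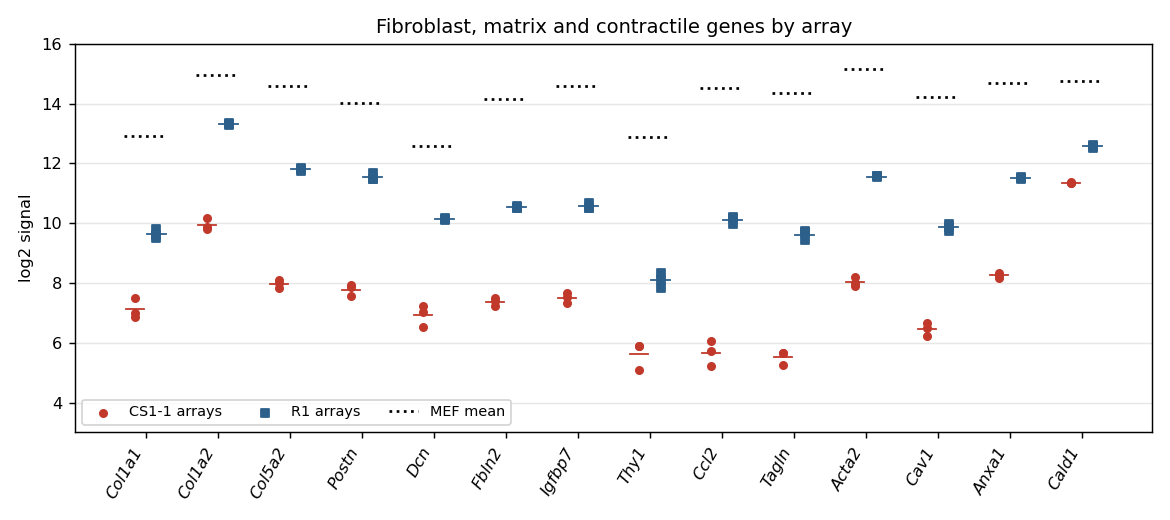
Levels (log2 signal) of 14 fibroblast, matrix and contractile genes on the 3 CS1-1 arrays (red circles) and the 3 R1 arrays (blue squares), with line means as short bars and the MEF mean as a dotted bar. For each gene shown, all CS1-1 arrays lie below all R1 arrays, and both lines lie below MEF. Col1a2, for example, averages 9.95 in CS1-1 and 13.32 in R1, below 14.96 in MEF.

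The median gene of the fibroblast and matrix list had 1.23% of its MEF signal in CS1-1 and 7.76% in R1. The 44 members ranged widely, reaching 196% in CS1-1 and 95.2% in R1. The summed signal of 15 fibroblast markers was 3240 to 4027 on CS1-1 arrays and 31309 to 32323 on R1 arrays, against 218087 to 223810 on MEF arrays, with 14 of the 15 lower in CS1-1 and 2 of them near background there. In RNA from whole cultures, fewer cells of a type and less RNA per cell cannot be told apart. The part of fibroblasts or fibroblast-like cells in the culture in these differences was not tested.

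A wider set of genes was taken by a rule that used neither line, namely a MEF mean at least 4-fold above the mean of the 3 ahES lines. The set is not limited to fibroblast genes, since a low level in ahES cells is enough. It holds the Y-linked gene Eif2s3y and Rrad, which had 544% and 169% of their MEF signal in R1 and were lower in CS1-1. Of 921 such genes tested, 308 (33.4%) were lower and 33 (3.58%) were higher in CS1-1. Of the other 11177 genes, 382 (3.42%) were lower and 473 (4.23%) were higher. Among the 38 lower members of the fibroblast and matrix list, 35 were of this MEF-high set, as were all 13 lower contractile and caveolar genes. Single genes of the MEF-high set show the size of these differences. Ccl2, a monocyte chemokine, was at 5.72, 5.22 and 6.06 in CS1-1, against 10.21, 9.97 and 10.18 in R1 (21.9-fold lower). Il6, an inflammatory cytokine of the LIF family, was near background at 4.27, 4.88 and 5.09 in CS1-1, against 9.19, 9.07 and 8.69 in R1, which makes it at least 11.7-fold lower. S100a4, a calcium-binding protein of motile cells, was 15.1-fold lower, and Cd44, the hyaluronan receptor, was 10.3-fold lower. The 4 probe sets of Cd44 ranged from -3.43 to -0.04. Ccnd2, a D-type cyclin, was at 6.58, 6.94 and 6.602 in CS1-1, against 10.39, 10.50 and 10.27 in R1 (12.8-fold lower). No CS1-1 array reached the R1 range for Ccl2, Il6 or Ccnd2.

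**Figure D2:**
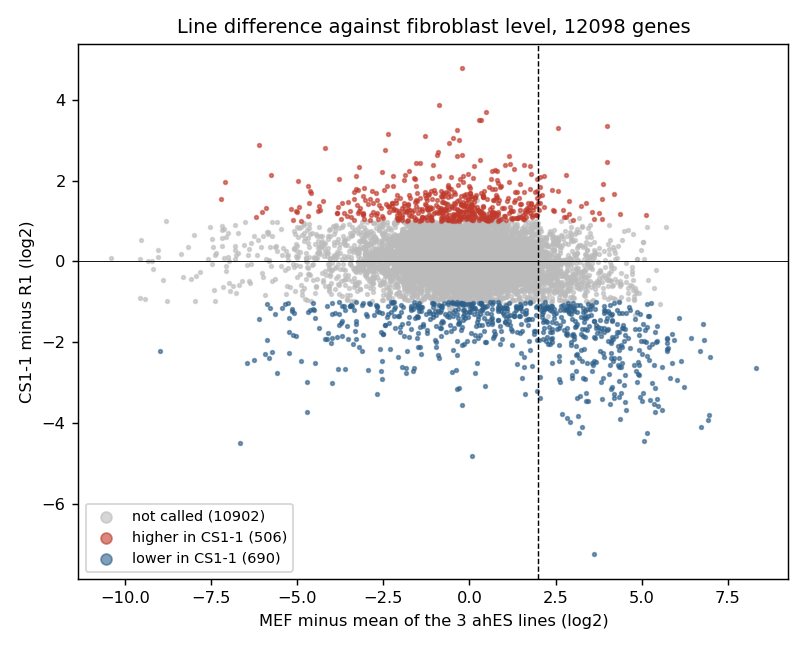
Each point is 1 of the 12098 genes tested, with the difference between MEF and the mean of the 3 ahES lines across (log2) and CS1-1 minus R1 upward (log2), coloured by call, and the dashed line marks 4-fold. To the right of it lie 308 genes lower and 33 higher in CS1-1, and to its left 382 lower and 473 higher.

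Many early response genes of growth factor and ERK signalling were lower in CS1-1. These are the genes switched on within minutes by growth factors, together with the feedback inhibitors of the pathway. Of 32 tested, 17 (53.1%, against 5.70% of all genes) were lower and none was higher in CS1-1, with a median of -1.03, 4 members above 0 and 24 below 0 at an unadjusted p under 0.05. Of the 17 lower genes, 13 lay outside the MEF-high set, and the 26 tested members outside it had a median of -0.79. Btg2, an antiproliferative early gene that p53 also induces, was at 9.84, 9.84 and 9.96 in CS1-1, against 11.98, 11.94 and 11.72 in R1 (-2.00 ± 0.08, adjusted p = 5.70e-14). Klf6, a zinc finger factor, was at 11.05, 11.04 and 10.97 in CS1-1, against 12.31, 12.28 and 12.15 in R1 (2.34-fold lower). Both sets of arrays were tight and apart by more than 1 log2 unit. Ier2, a nuclear early response protein, fell by 1.12 ± 0.06 and Jund, an AP-1 subunit, by 1.02 ± 0.06, though its second probe set differed by 0.42 in the other direction and the mean over both was -0.30. Without R1 replicate 2, Jund differed by -0.95.

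Transcription factors of the same list that were picked after their values were seen went the same way. Jun, an AP-1 subunit, was at 11.11, 11.20 and 11.08 in CS1-1, against 12.81, 12.86 and 12.41 in R1 (-1.56 ± 0.09). Junb, another AP-1 subunit, fell by 1.73 ± 0.13. Zfp36, an RNA-binding protein that destabilises early transcripts, differed by -2.37 ± 0.16. Egr1, a zinc finger factor induced by ERK, was at 13.92, 13.90 and 14.002 in CS1-1, against 15.08, 15.03 and 14.83 in R1 (-1.04 ± 0.06), and was short of 2-fold without R1 replicate 1 (-0.99). Egr2, a second member of that family, was at 7.79, 7.86 and 7.91 in CS1-1, against 9.73, 9.71 and 9.16 in R1 (-1.68 ± 0.25). R1 replicate 3 was the lowest R1 array for Jun, Egr1 and Egr2 and still lay above every CS1-1 array. The list was not uniform. Fos, the AP-1 partner of Jun, was at 12.81, 12.75 and 12.81 in CS1-1, against 13.49, 13.53 and 13.01 in R1 and was not called (-0.55 ± 0.11). Of the feedback inhibitors, Spry4, an inhibitor of receptor tyrosine kinase signalling, fell by 2.61 ± 0.40, whereas its relative Spry2, which lies in the distal stretch of chromosome 14 described below, differed by 0.77 ± 0.08 and the ERK phosphatase Dusp6 by 0.22 ± 0.07, both uncalled.

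Because Egr2 belongs to the genes that serum response factor is known to bind through CArG boxes, its promoter is shown with the 1 CArG box found there in capitals, at position -72 relative to the start. The 250 bases before the start are from RefSeq (GRCm38.p6), chr10:67537316-67537565 on the + strand, 1 of 5 start windows listed for the gene. This window was picked as one with the most matches to the motif.
Egr2: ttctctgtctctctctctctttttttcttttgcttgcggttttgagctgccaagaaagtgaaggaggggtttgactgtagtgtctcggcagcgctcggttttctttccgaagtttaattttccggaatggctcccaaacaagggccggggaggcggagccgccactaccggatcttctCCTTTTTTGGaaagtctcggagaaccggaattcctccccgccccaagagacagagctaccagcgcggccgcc
A CArG box on either strand was present in 1.38% of the 9784 tested genes with a window of this length. Among the 17 lower growth factor genes, 10 had a window and 2 held the motif, Egr2 and Zfp36. Of the 22 tested members of that list with a window, called or not, 4 (18.2%) held it. The match describes the letters and was not tested as a binding site.

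Part of the p53 target list was also lower. p53 is the transcription factor that answers DNA damage and other stress by arresting or killing cells. Of 30 tested targets, 13 (43.3%, against 5.70% of all genes) were lower, 1 was higher and 16 were not called, with a median of -0.73 and with 5 above 0 and 19 below 0 at an unadjusted p under 0.05. Of the 13 lower targets, 11 lay outside the MEF-high set (median -0.49 over the 28 tested members outside it). Plk2, a polo-like kinase, was at 10.34, 10.28 and 10.25 in CS1-1, against 12.14, 12.01 and 11.91 in R1 (3.31-fold lower). Phlda3, an inhibitor of Akt, was at 9.83, 9.77 and 9.74 in CS1-1, against 11.31, 11.38 and 11.31 in R1 (2.93-fold lower). Aen, a nuclease of apoptosis, was at 10.49, 10.41 and 10.55 in CS1-1, against 11.66, 11.58 and 11.73 in R1 (2.26-fold lower). In all 3 the lines were separated by far more than the spread of their arrays. A second probe set of Plk2 differed by 0.05, and the mean over both was -0.84.

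Among targets picked after their values were seen, Eda2r, a death receptor family member, fell by 1.58 ± 0.09. Mdm2, the ubiquitin ligase that degrades p53, and Ccng1, a cyclin of the p53 response, lay just past 2-fold, at -1.12 and -1.01. Without R1 replicate 1 Mdm2 differed by -0.99, and without R1 replicate 2 Ccng1 differed by -0.98. Cdkn1a (p21), the main arrest gene, was at 11.42, 11.44 and 11.48 in CS1-1, against 12.54, 12.36 and 12.23 in R1 and was not called at -0.93 ± 0.10, though without R1 replicate 3 it differed by -1.01 and passed. The 1 higher target was Pmaip1 (Noxa), a BH3-only killer protein, at 9.85, 9.93 and 9.83 in CS1-1, against 7.99, 8.21 and 8.16 in R1 (3.36-fold higher). Of the ahES lines, whose arrays were not part of the contrast, AH129-5 had Eda2r at 6.33 and Phlda3 at 9.23, while AH129-N1 had 11.25 and 11.12 and AH129-NC1 had 11.94 and 11.73.

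**Figure D3:**
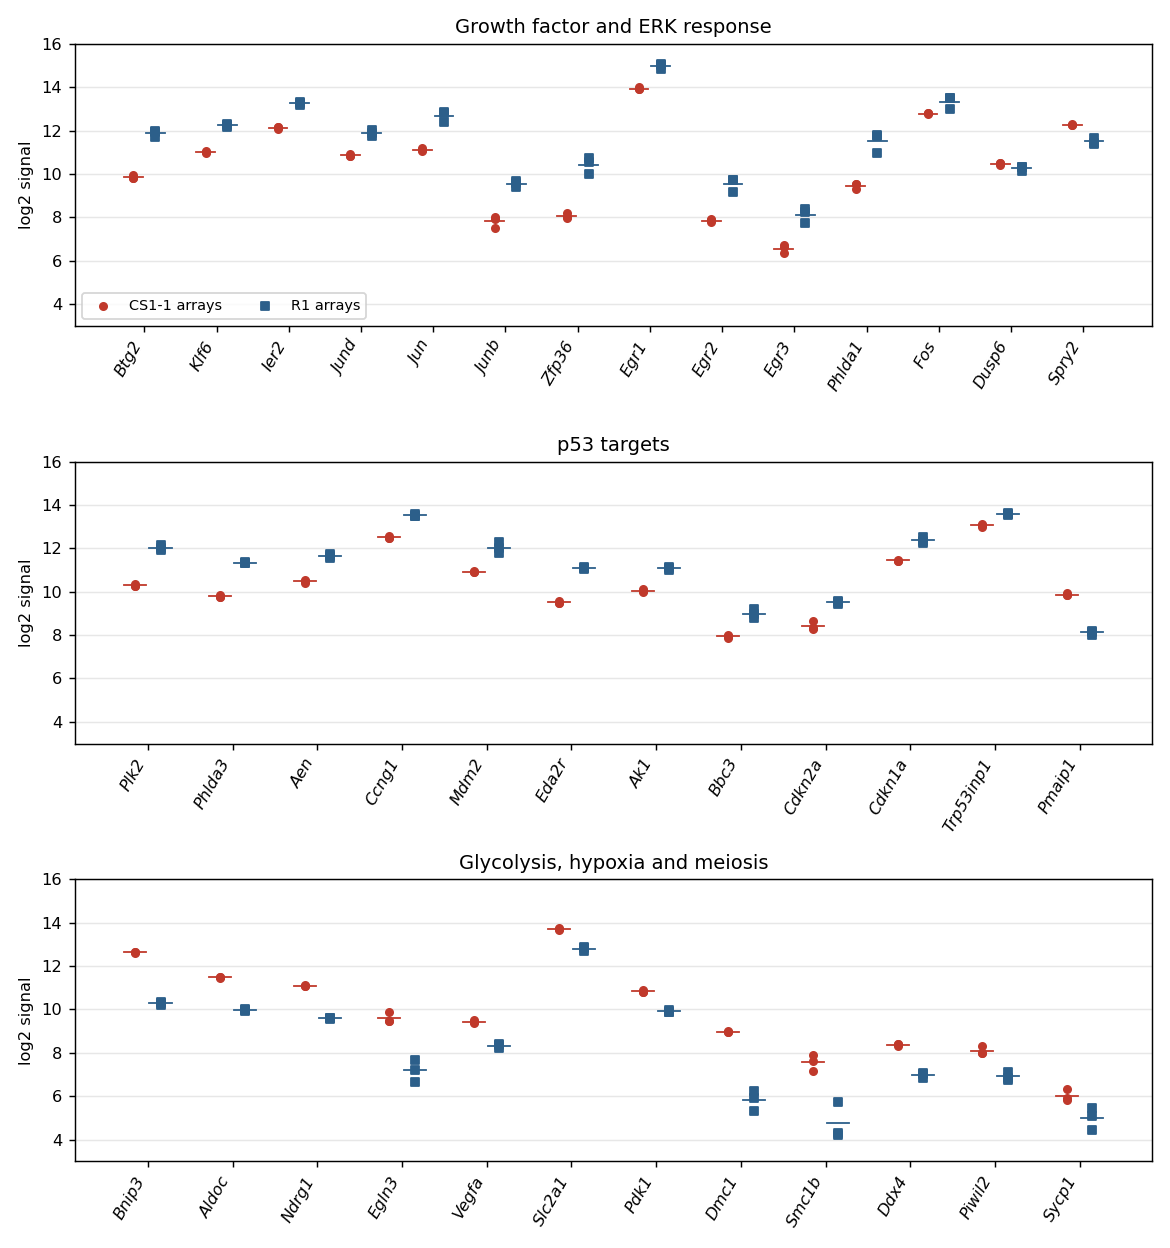
Levels (log2 signal) of growth factor and ERK response genes (top), p53 targets (middle) and glycolysis, hypoxia and meiosis genes (bottom) on each CS1-1 array (red circles) and each R1 array (blue squares), with line means as bars. In the top and middle panels most CS1-1 arrays lie below those of R1, with Spry2, Dusp6 and Pmaip1 the other way. In the bottom panel CS1-1 lies above R1 for every gene, as for Bnip3 at 12.63 in CS1-1 against 10.28 in R1. That panel was picked to show the 5 called genes of each list with Slc2a1 and Pdk1. Members with a difference below 0 are not shown, 3 of 29 for glycolysis and hypoxia and 8 of 25 for meiosis and piRNA.

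Some genes of glycolysis and hypoxia were higher in CS1-1, and most members of this list were not called. When oxygen is low, HIF factors bind the letters ACGTG before their target genes and raise glycolysis and its regulators. Of 29 tested genes, 5 (17.2%, against 4.18% of all genes) were higher and none was lower in CS1-1, and 26 of the 29 differences were above 0 (median 0.52, with 23 above 0 and 2 below 0 at an unadjusted p under 0.05). Over all genes, 51.7% of differences were above 0. Bnip3, a mitochondrial protein of mitophagy, was at 12.63, 12.65 and 12.62 in CS1-1, against 10.23, 10.32 and 10.29 in R1 (5.10-fold higher, adjusted p = 2.13e-16). Egln3, an oxygen-sensing prolyl hydroxylase that acts on HIF, was at 9.46, 9.49 and 9.87 in CS1-1, against 7.21, 7.67 and 6.68 in R1 (5.35-fold higher). CS1-1 arrays were above all R1 arrays by more than 1.5 log2 units for both genes. Ndrg1, a stress-induced protein, was 2.86-fold higher, Aldoc, the brain-type aldolase of glycolysis, was 2.84-fold higher and Vegfa, the angiogenic growth factor, was 2.15-fold higher. The second probe set of Vegfa put its mean at 0.99, short of 2-fold. Members picked after their values were seen include Slc2a1, the glucose transporter Glut1, at 0.91 ± 0.06, Hk2, a hexokinase, at 0.61 ± 0.04 and Ldha, lactate dehydrogenase A, at 0.15 ± 0.07, none of them called. With an offset of 1 signal unit Slc2a1 differed by 1.04 and passed, and as the mean over its probe sets by 1.03. Epas1, which encodes the HIF subunit HIF2-alpha, was at 0.25 ± 0.09, and at -0.30 as the mean over both probe sets. Neither value was called.

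The promoters of Bnip3 and Egln3, the pair with the largest rises in this list, are shown with ACGTG on either strand in capitals. Both are the 250 bases before the start from RefSeq (GRCm38.p6), for Bnip3 chr7:138909507-138909756 on the - strand, where the capitals read as the motif on both strands, and for Egln3 chr12:54203875-54204124 on the - strand.
Bnip3: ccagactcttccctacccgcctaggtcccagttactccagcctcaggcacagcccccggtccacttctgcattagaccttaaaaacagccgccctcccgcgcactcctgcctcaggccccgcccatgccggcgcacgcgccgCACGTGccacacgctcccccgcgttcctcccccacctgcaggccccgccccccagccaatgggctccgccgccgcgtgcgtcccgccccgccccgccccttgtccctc
Egln3: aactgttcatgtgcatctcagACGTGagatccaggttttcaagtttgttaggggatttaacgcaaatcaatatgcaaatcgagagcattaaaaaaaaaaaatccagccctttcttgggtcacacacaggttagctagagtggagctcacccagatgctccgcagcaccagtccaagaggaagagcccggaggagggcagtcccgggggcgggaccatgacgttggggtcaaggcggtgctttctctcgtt
In the Egln3 window the motif begins at position -229. ACGTG was present on either strand in 25.4% of the 9784 tested genes with a window, in 18 of 26 tested members of the glycolysis and hypoxia list with a window, and in 3 of the 4 called members with a window, Bnip3, Vegfa and Egln3. These are counts of letters, and binding was not measured.

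Of 25 tested genes of meiosis and the piRNA pathway, which protects the germline from transposons, 5 (20%, against 4.18% of all genes) were higher and none was lower in CS1-1 (median 0.24, with 10 above 0 and 2 below 0 at an unadjusted p under 0.05). Dmc1, the recombinase of meiotic strand exchange, was at 9.01, 8.94 and 8.97 in CS1-1, against 5.92, 5.34 and 6.23 in R1 (8.84-fold higher). Smc1b, a cohesin subunit of meiosis, was at 7.16, 7.60 and 7.92 in CS1-1, against 5.72, 4.22 and 4.28 in R1, where it was near background, and was at least 3.92-fold higher. CS1-1 was the higher line on every array for both genes. Ddx4 (Vasa), a germ cell RNA helicase, was 2.68-fold higher, and Piwil2, a Piwi protein that binds piRNA, was 2.28-fold higher. Sycp1, a protein of the synaptonemal complex, was near background in R1 and at least 1.43-fold higher, and its call ended without CS1-1 replicate 1 (adjusted p = 0.0756) or R1 replicate 3 (adjusted p = 0.0932). Smc1b and Sycp1 passed the filter on low signal only through CS1-1.

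Of 30 genes of serine synthesis and the integrated stress response, which raises amino acid supply when translation is limited, 3 (10%, against 4.18% of all genes) were higher and 2 (6.67%, against 5.70%) lower in CS1-1, with 18 above 0 and 8 below 0 at an unadjusted p under 0.05. Slc1a4, a transporter of neutral amino acids, was at 9.02, 8.86 and 9.06 in CS1-1, against 6.91, 6.59 and 6.67 in R1 (4.77-fold higher). Chac1, a glutathione-degrading enzyme induced by Atf4, rose by 1.52 ± 0.10, and Stc2, a secreted glycoprotein of the same response, by 1.69 ± 0.14. Arrays of the 2 lines did not overlap for these 3 genes. Cebpb, a leucine zipper factor that is also MEF-high, was lower by 1.21 on the log2 scale and short of 2-fold as the mean over its probe sets (-0.90), and Sesn2, which also belongs to the p53 list, was at -1.01, and short of 2-fold without CS1-1 replicate 1 (-0.99), CS1-1 replicate 2 (-0.97) or R1 replicate 1 (-0.89).

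Imprinted genes, which are expressed from 1 parental copy, were called in both directions. Of 20 tested paternally expressed genes, 2 (10%) were higher and 3 (15%) lower in CS1-1 (median -0.10), with 6 above 0 and 9 below 0 at an unadjusted p under 0.05. Of 27 tested maternally expressed genes, 3 (11.1%) were higher and 7 (25.9%) lower (median -0.07), with 10 above 0 and 12 below 0 at that p. Of these 7, 3 were of the MEF-high set, and Grb10 was also counted among the lower paternally expressed genes. Dcn is also of the fibroblast and matrix list, and Xist and Tsix are the X-linked pair described below. Over all genes 4.18% were higher and 5.70% lower. Igf2, a fetal growth factor expressed from the paternal copy, was at 7.67, 7.83 and 7.88 in CS1-1, against 10.30, 10.15 and 10.14 in R1 (5.29-fold lower). Igf2 was far higher in MEF and belongs to the MEF-high set, as do Ndn, a MAGE-family growth suppressor, and Grb10, a signalling adaptor, which were 3.13-fold and 2.57-fold lower and, as the mean over their probe sets, differed by -0.92 and -0.83. Phlda2, a maternally expressed inhibitor of placental growth, lay outside that set and was at 8.67, 8.48 and 8.65 in CS1-1, against 10.94, 10.90 and 10.58 in R1 (4.61-fold lower). Peg3, a paternally expressed zinc finger gene, was at 11.90, 11.71 and 12.04 in CS1-1, against 10.32, 10.21 and 10.31 in R1 (3.03-fold higher). Zdbf2, another paternally expressed zinc finger gene, was 2.15-fold higher, and Meg3, a maternally expressed noncoding RNA, was not called at 0.49 ± 0.08. By their brightest probe sets, the lines thus differed in opposite directions for 2 paternally expressed genes, Igf2 and Peg3, each by more than the spread of its arrays. The other probe set of Igf2 differed by -0.47, and the 5 probe sets of Peg3 ranged from -0.41 to 2.06.

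Of 32 interferon and antigen processing genes, 8 (25%, against 5.70% of all genes) were lower and none was higher in CS1-1 (median -0.34, with 4 above 0 and 16 below 0 at an unadjusted p under 0.05). Oas1a, a sensor of double-stranded RNA, was at 10.70, 10.76 and 10.73 in CS1-1, against 12.07, 12.05 and 11.89 in R1 (2.42-fold lower). B2m, the light chain of MHC class I, fell by 1.21 ± 0.07 and Ly6e, an interferon-induced surface protein, by 1.58 ± 0.09. Every CS1-1 array was below every R1 array for these 3 genes. Xaf1, an apoptosis gene induced by interferon, had a difference of -1.04 by its brightest probe set and 1.61 by its other one, so it gave 0.29 as their mean, and its direction depends on the probe set.

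Of 15 tested Hox genes, which set position along the body axis, 5 (33.3%, against 5.70% of all genes) were lower and none was higher in CS1-1, with 0 of 15 differences above 0 (against 51.7% of all genes), a median of -0.84 and 12 below 0 at an unadjusted p under 0.05. Of the 5, Hoxc10 was at 5.32, 6.08 and 4.31 in CS1-1, against 6.86, 7.21 and 7.001 in R1, and was at least 2.60-fold lower, Hoxc8 was at least 2.18-fold, Hoxc5 at least 1.65-fold and Hoxa7 at least 1.54-fold lower. All 4 were near background in CS1-1 and passed the filter on low signal only through R1. Their direction was thus partly set by that filter, and 18 further members of the list were below it. The 5 lower genes were brighter in MEF than in either line, with MEF means of 8.34 for Hoxc10, 9.93 for Hoxc8, 8.77 for Hoxc5, 7.58 for Hoxa7 and 8.93 for Hoxc4, and the part of fibroblast RNA in their difference was not tested. Hoxc4 lay at the 2-fold limit with -1.002, and fell short of it without CS1-1 replicate 1 (-0.94), CS1-1 replicate 2 (-0.95), R1 replicate 1 (-0.997) or R1 replicate 2 (-0.998). The list held 3 lower genes with an offset of 32 signal units and 1 with a filter at the 60th percentile. The 3 probe sets of Hoxc5 ranged from -2.19 to 0.37.

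Of the 4 tested genes on the Y chromosome, Orly was not called (-0.31 ± 0.29), and the other 3, which male cells carry and female cells lack, were all near background in CS1-1 and called lower. Eif2s3y, a translation initiation factor subunit, was at 4.04, 4.44 and 4.203 in CS1-1, against 11.50, 11.50 and 11.44 in R1, and was at least 66.1-fold lower. Uba1y, a ubiquitin-activating enzyme, was at 5.11, 4.22 and 4.36 in CS1-1, against 9.36, 9.35 and 9.46 in R1 (at least 15.5-fold lower). Uty, a histone demethylase homologue, was at 5.18, 4.55 and 4.47 in CS1-1, against 7.64, 7.82 and 7.42 in R1 (at least 4.56-fold lower). Signal from the Y chromosome was thus present in R1 and at background in CS1-1, although Kdm5d, a Y-linked gene below the filter on low signal, was dim in both lines. A second probe set of Eif2s3y differed by -0.15. Whether CS1-1 cells lack a Y chromosome was not measured.

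The tested X-linked genes had a median difference of -0.09, with 9 (2.30%, against 4.18% of all genes) higher and 36 (9.18%, against 5.70%) lower in CS1-1. Relative to the ahES mean, the median X-linked gene was at -0.92 in CS1-1 and -0.84 in R1, values that share the ahES arrays. Xist, the noncoding RNA that coats an inactive X chromosome, was at 8.26, 8.21 and 8.16 in CS1-1, against 10.06, 10.03 and 10.08 in R1 (3.60-fold lower, adjusted p = 9.16e-11). Its 3 probe sets all differed in that direction, from -1.85 to -1.48. Xist was at 12.76 in MEF, well above both lines, and belongs to the MEF-high set. Tsix, its antisense partner, was near background in CS1-1 and at least 2.80-fold lower, and the probe sets of the pair come from overlapping genes. Rlim, an X-linked activator of Xist, was not called at -0.32 ± 0.05. Klhl13, a Cullin adaptor on the X chromosome, was at 10.18, 10.05 and 10.18 in CS1-1, against 11.86, 11.87 and 11.63 in R1 (3.13-fold lower).

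Among the autosomes, chromosome 8 stood lowest. Its 657 tested genes had a median difference of -0.33 (1.26-fold lower), and 77.2% were below 0, against 48.3% of all genes. Of them, 55 (8.37%, against 5.70% of all genes) were lower and 7 (1.07%, against 4.18%) higher in CS1-1. The other autosomes apart from 14 and 17 had medians from -0.09 to 0.10. Single runs of neighbouring genes on them reached further. From Smc1b to Hdac10 on chromosome 15, the median difference was 0.51, with 22 of 25 genes above 0. Chromosome 17 had a median of 0.12 over 594 genes, with 35 (5.89%) higher and 19 (3.20%) lower. The medians of the 5 successive parts of chromosome 8, of nearly equal gene number, lay between -0.41 and -0.24. After subtraction of the median of all genes, 19 of its 26 runs of 25 or more neighbouring genes were at -0.3 or below. Over the autosomes and the X chromosome together, 25 of 473 runs were. The shift was not even along the chromosome, since the run from 6430548M08Rik to Ctu2 had a median difference of 0.03, with 14 of 25 genes above 0, and the run from Nr2c2ap to Ifi30 had -0.07. Relative to the ahES mean, chromosome 8 genes had a median of 0.09, 0.06 and 0.07 on the CS1-1 arrays, against 0.42, 0.42 and 0.42 on the R1 arrays. R1 was therefore the line that stood off from the ahES lines, by the same amount on each array. Without the MEF-high genes the median difference was -0.32. Among chromosome 8 genes, Zfp42, Junb, Ier2 and Jund were described above. Cyba, a subunit of the NADPH oxidase, went against the shift at 11.42, 11.46 and 11.46 in CS1-1, against 10.03, 10.00 and 9.98 in R1 (2.71-fold higher), and Cdyl2, a chromodomain protein, was 2.74-fold higher by its brightest probe set, with a mean over its probe sets of 0.75.

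Chromosome 14 had the highest median, 0.17 over 398 genes, and there the shift lay at one end. The last of 5 equal parts of the chromosome in gene order, 80 tested genes from Gfra2 to Tmtc4, had a median difference of 0.59 (1.51-fold higher), against 0.08 over the other 318 genes. In this distal part, 69 of 80 genes were above 0 (86.25%, against 51.7% of all genes) and 16 (20%, against 4.18% of all genes) were higher in CS1-1. The oxidase gene Enox1 was the 1 lower gene, and it was near background in CS1-1. This stretch was picked after the values were seen. Relative to the ahES mean, its genes had a median of 0.55, 0.59 and 0.53 on the CS1-1 arrays, against -0.07, -0.12 and -0.10 on the R1 arrays. Here CS1-1 was the line that stood off from the ahES lines, and all 3 of its arrays did so alike.

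Uggt2, a glucosyltransferase of glycoprotein folding, lies in this stretch and was at 8.89, 8.57 and 8.88 in CS1-1, against 5.67, 5.11 and 5.50 in R1 (at least 9.16-fold higher). Rgcc, a regulator of cell cycle kinases, was at 9.74, 9.78 and 9.83 in CS1-1, against 6.25, 6.67 and 6.53 in R1 (9.87-fold higher). Both rises were far above the median of the stretch. Tgds, an enzyme of nucleotide sugars, was 4.09-fold higher, and Clybl, a mitochondrial citramalyl-CoA lyase, was 3.36-fold higher. Mbnl2, a splicing regulator, was 2.60-fold higher by its brightest probe set and 0.81 on the log2 scale by the mean over 5 probe sets. Klf5, a naive pluripotency factor in the stretch, was picked after its values were seen and was not called at 0.62 ± 0.07. DNA copy number was not measured for either chromosome, and its part in these shifts was not tested.

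**Figure D4:**
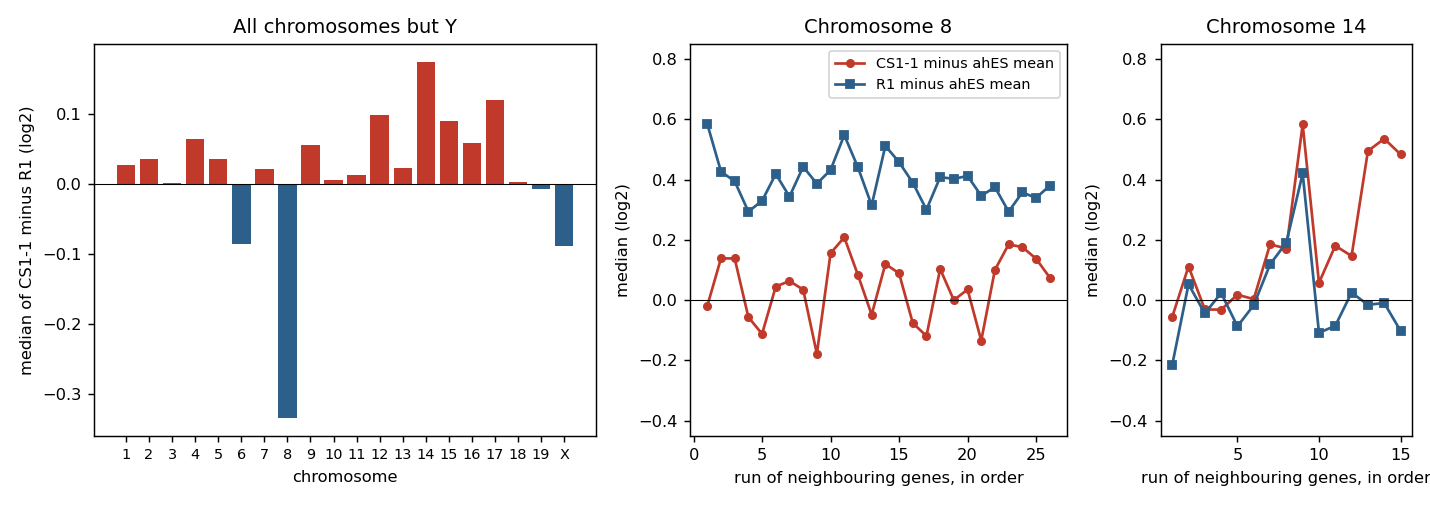
Left, median of CS1-1 minus R1 (log2) over the tested genes of each chromosome but Y, where chromosome 8 stands at -0.33 and chromosome 14 at 0.17. Middle and right, medians of runs of neighbouring genes in order along chromosomes 8 and 14, for CS1-1 (red circles) and R1 (blue squares), each relative to the mean of the 3 ahES lines. R1 is above CS1-1 along chromosome 8, and CS1-1 is above R1 over the last runs of chromosome 14.

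Several of the largest rises belonged to none of the lists. Ubd, the ubiquitin-like modifier FAT10, was at 9.26, 9.27 and 9.25 in CS1-1 and near background at 3.72, 5.18 and 4.53 in R1, at least 13.5-fold higher. Apoa2, an apolipoprotein of high-density lipoprotein, was at 9.08, 9.49 and 9.25 in CS1-1 and near background at 5.76, 5.52 and 4.95 in R1, at least 12.7-fold higher. Olig1, a helix-loop-helix factor of oligodendrocytes, was at least 6.64-fold higher. All 3 were dim in the ahES lines as well, with line means of 4.17 to 5.80, and passed the filter on low signal only through CS1-1. Ndufa4l2, a mitochondrial protein known as a hypoxia target, was at 7.81, 7.32 and 7.90 in CS1-1, against 4.73, 4.37 and 4.16 in R1 (at least 4.48-fold higher). Zfp934, a zinc finger gene, was bright in both lines, at 12.91, 12.89 and 12.63 in CS1-1, against 9.90, 9.92 and 9.98 in R1 (7.35-fold higher). Its ahES means were 12.77 to 12.96, close to CS1-1.

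Among the largest falls outside the MEF-high set, Pramel6, a Prame-family gene of early embryos and ES cells, was near background at 5.62, 5.36 and 4.53 in CS1-1, against 9.63, 9.68 and 9.68 in R1, and was at least 18.0-fold lower. Its ahES means were 9.26, 10.50 and 10.94, so CS1-1 was alone among the 5 ES lines in having it near background. Usp17la, a deubiquitinase gene of the list of genes of the early embryo, was at 5.91, 5.61 and 5.81 in CS1-1, against 9.26, 8.99 and 8.93 in R1. Rrad, a small GTPase related to Ras that is of the MEF-high set, was near background in CS1-1 and at least 9.42-fold lower.

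**Figure D5:**
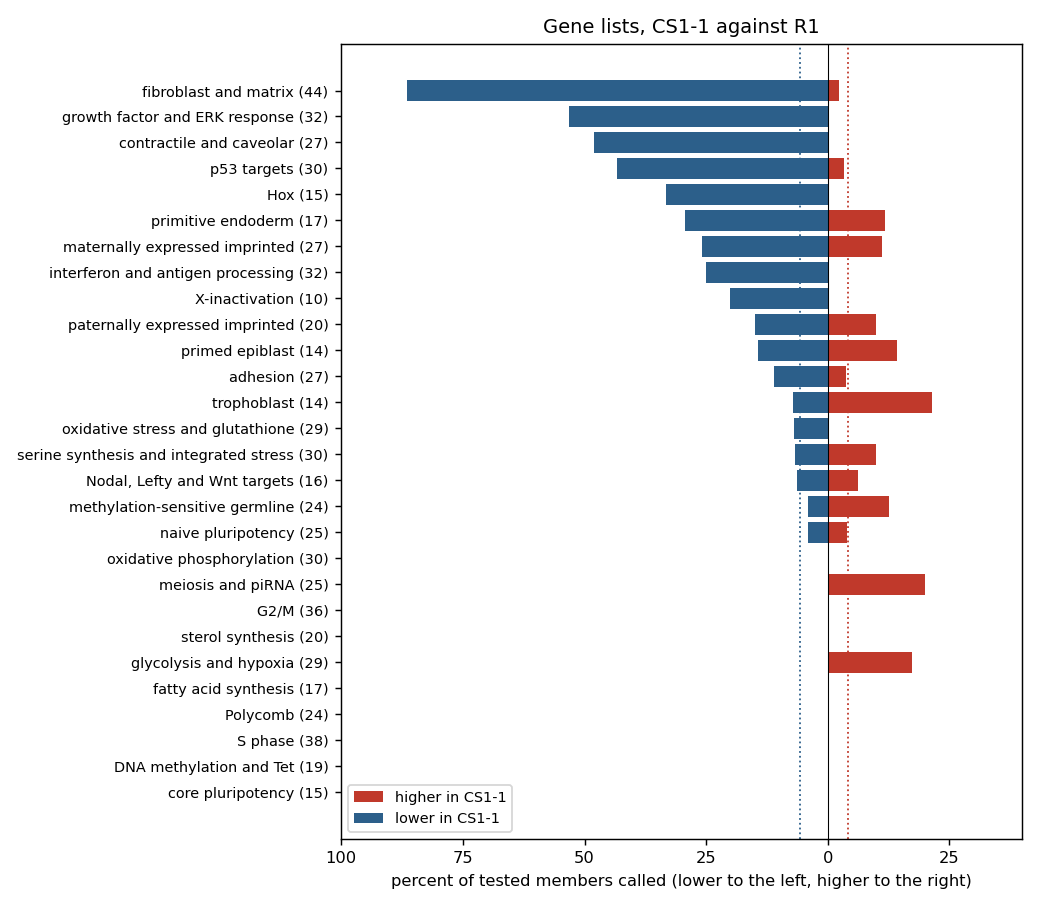
Percent of the tested members of each gene list with at least 10 tested genes that were called lower (blue, to the left) and higher (red, to the right) in CS1-1, with the number tested in brackets. The dotted lines mark the share of all tested genes, 5.70% lower and 4.18% higher, and 86.4% of the fibroblast and matrix list was lower.

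Lists of the basic machinery of the cell had no called gene. By limma, 0 of 38 S phase genes, 0 of 36 G2/M genes, 0 of 24 Polycomb genes, 0 of 30 oxidative phosphorylation genes, 0 of 20 sterol synthesis genes, 0 of 17 fatty acid synthesis genes and 0 of 19 DNA methylation and Tet genes passed. At an unadjusted p under 0.05, the members above 0 and below 0 numbered 15 and 10 for S phase, 9 and 12 for G2/M, 9 and 2 for Polycomb, 7 and 7 for oxidative phosphorylation, 10 and 1 for sterol synthesis, 7 and 4 for fatty acid synthesis and 6 and 6 for DNA methylation and Tet. Their medians lay between -0.05 and 0.17. Of all 12098 genes, 3458 were above 0 and 3200 below 0 at that p. Among the methyltransferase genes, Dnmt3b, a de novo enzyme, was at 10.75, 10.89 and 10.91 in CS1-1, against 10.56, 10.75 and 10.45 in R1, and was not called. Dnmt3l, the cofactor of the de novo enzymes, had the larger difference of -0.81 ± 0.09, short of 2-fold, and Dnmt3a was at -0.36 ± 0.12, or 0.00 as the mean over its 5 probe sets.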

How the data were processed

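The authors' deposited values are MAS5 signals on the log2 scale, as credited to the submitters' processing notes, with 45101 probe sets per array. The base was settled from the values, since the 2% trimmed mean of the antilog was 500.003 on each of the 6 arrays. Scanner files were not used here. No read depth exists for arrays, and 3 arrays per line limit the precision.

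From these values, the signal plus 9.70 units (the median of the arrays' 20th percentiles) was put on the log2 scale. Each gene was read by the probe set with the highest mean over the 21 arrays, among 34945 probe sets annotated to 1 gene (932 had several genes and 9160 none), which gave 18193 genes. Tested genes (12098) had all 3 arrays of CS1-1 or of R1 above the array's 40th percentile. A mean per line was fitted over the 15 ES arrays with limma 3.58.1 in R 4.3.3 (statmod 1.5.0), with intensity trend and robust moderation of the variance, and p-values were adjusted by Benjamini-Hochberg over all tested genes. An exact permutation test of 3 arrays against 3 cannot go below p = 0.1, so no test of single values was used. Nothing says that arrays came from separate cultures, so p-values measure the spread between these arrays, which may be technical. A fold is a lower bound ("at least") where one line was near background. The script was tested on simulated data.

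By rule, named genes came from the 15 largest rises and falls and from up to 4 called members of each list. Up to 3 genes of each chromosome that stood apart and a set of key genes were also taken. Not every gene given by this rule is named in the text. Named genes outside the rule are said to be picked after their values were seen. The members of the comparison and the gene lists were chosen with earlier results of these data known. Promoters and gene order come from RefSeq GRCm38.p6. The replicate numbers were checked for pairing: deviations of same-numbered arrays correlated at -0.01, 0.00 and 0.05, so the arrays were not treated as pairs. Alternatives covered the offset, scaling, filter, probe set, arrays in the fit, variance moderation, replicate block, MEF-high genes and each array left out. Those for distal chromosome 14 genes and for the list counts were chosen after seeing the data.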

Additional observations from a re-analysis of the deposited data

How the results depend on the processing

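The 506 genes higher in CS1-1 than R1 numbered 366 to 554 and the genes lower in CS1-1 than R1 numbered 382 to 833 over all alternatives, and 492 to 523 higher and 682 to 713 lower when 1 array was left out. The lower count moved by more than 1.5 times with a filter at the 60th percentile (427) and without the MEF-high genes (382), where fewer genes are tested. An offset of 32 signal units called 888 genes in all, of which 883 were among the 1196 of the main setting. With the replicate block 1200 genes were called, 1193 of them shared, and the block ended no call of a named gene.

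The median difference of chromosome 8 genes was -0.35 with an offset of 1, -0.31 with an offset of 32, -0.33 with centred arrays, -0.29 without a filter, -0.34 at the 60th percentile, -0.32 as the mean over probe sets, by the probe set brightest in the 6 diploid arrays or without MEF-high genes, and -0.35 to -0.33 with 1 array left out. The median difference of chromosome 14 genes was 0.12 without a filter, 0.21 at the 60th percentile, 0.19 as the mean over probe sets, 0.20 by the 6-array probe set, and 0.15 to 0.22 with 1 array left out. The median difference of distal chromosome 14 genes was 0.57 with an offset of 32, 0.62 at the 60th percentile, 0.55 as the mean over probe sets, and 0.55 to 0.61 with 1 array left out. Directions turned for Xaf1 (0.29), Epas1 (-0.30) and Dnmt3a (0.0027) as the mean over probe sets, and for Pou5f1 (-0.0074) without R1 replicate 3, whose values with 1 array left out ran from -0.0074 to 0.020. The cause was not tested. Spic had no value without probe sets that can bind several transcripts. Genes near background have only a bound on their fold.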
